A study of Saccharomyces cerevisiae with 2 samples.

Results

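The nuclear fusion, or karyogamy, genes of budding yeast were examined in a cells with and without mating pheromone. The set holds 9 genes, taken by name, among 5449 Saccharomyces cerevisiae genes named on the array. PRM3, KAR1, KAR3, KAR4, KAR5, KAR9, CIK1, VIK1 and BIK1 were each read by 1 probe set.

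Karyogamy follows cell fusion in mating. The partners' nuclei are drawn together along cytoplasmic microtubules that grow from the spindle pole bodies, the yeast centrosomes embedded in the nuclear envelope, and the envelopes then fuse to give a diploid nucleus. The microtubule step uses a kinesin motor and its partner, proteins that bind microtubule tips, and an anchor on the spindle pole body. The membrane step uses proteins of the nuclear envelope and the endoplasmic reticulum, and a transcription factor acts ahead of both steps.

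Transcript levels were measured in 1 mock-treated culture and 1 culture treated with alpha factor, the peptide pheromone of alpha cells, at 50 ng/ml for 3 hours at 30 °C in rich medium. About 90% of the treated cells carried mating projections under the microscope. The title of the treated sample calls it alpha-factor arrested, and the part of an arrest in the differences was not tested. The sources used here do not give the handling of the mock culture. The 2 cultures were grown from the S288c-derived MATa strain R276, whose alleles are bar1Δ::KanMX, met15Δ0, his3Δ1, leu2Δ0 and ura3Δ0. BAR1 encodes the secreted protease that degrades alpha factor, so both cultures lacked that protease. The cultures held a cells with no mating partner added, so transcripts were measured and nuclear fusion was not. The RNA was read on Affymetrix Yeast 2.0 arrays, 1 per culture, on which S. cerevisiae probe sets stand beside those of Schizosaccharomyces pombe, a fission yeast.

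Since each condition had a single array, no value has a replicate error, no difference has a test, and the number of arrays sets how precise any ratio can be. Expression values are on a log2 scale, and each difference is alpha factor minus mock. The background level was 5.50 in both arrays, the 95th percentile of the S. pombe probe sets. A gene was called higher or lower by size alone, when the arrays differed by 2-fold or more and the gene was above background in at least 1 of them. Of the S. cerevisiae genes, 5337 were above background. Probe sets differ in brightness for equal amounts of RNA, so levels are compared between arrays for a gene and not between genes.

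The arrays were first checked against their labels. BAR1 was below background in both arrays, at 3.83 in mock and 3.63 with alpha factor. The 7 listed genes of the pheromone response were FUS1, FUS2, FUS3, PRM1, FIG1, AGA1 and SST2. All 7 were higher by 2-fold or more in the alpha-factor array, with differences from 1.70 to 5.90, beside 5.51% of all genes. That list was chosen with earlier results of these data known, which limits the check. Of 7 a-specific genes 6 were above background, ASG7 and AGA2 were higher with differences of 4.71 and 1.27, MFA1 had one of 0.87, and their summed signal had a log2 of 15.74 in mock and 16.70 with alpha factor. The 4 alpha-specific genes summed to 10.09 and 11.06. Among them MF(ALPHA)1, from which alpha cells make most of their pheromone, was near background at 5.85 and 5.93, while STE3 was at 7.74 and 9.49 and MF(ALPHA)2 at 6.36 and 8.64. SAG1 was well above background in both arrays, at 9.53 and 9.91, a difference of 0.38. Of the 4 genes 2 were called higher, STE3 and MF(ALPHA)2, beside 5.51% of all genes. The part of these alpha-specific signals in the results was not tested. For 7 yeast control transcripts with several probe sets along their length, the differences within a transcript spanned from 0.05 to 0.87, with a median span of 0.14. Probe sets of 25S ribosomal RNA differed between the arrays by -5.20 to 0.01, and the part of RNA composition in the results was likewise not tested.

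Of the 9 karyogamy genes, 5 were higher by 2-fold or more with alpha factor and 1 was lower, against 5.51% and 3.78% of all genes above background. The 5 higher genes were PRM3, CIK1, KAR5, KAR3 and KAR4, and their differences ran from 2.78 to 6.51. Each of the 5 also passed 4-fold, as did 1.27% of all genes, while no member was lower by 4-fold, where 1.01% of all genes were. The other 4 genes, KAR9, BIK1, KAR1 and VIK1, ran from -0.10 down to -1.09. The median difference over the 9 was 2.78, beside -0.03 over all genes above background. All 9 genes were above background in both arrays, by 2.19 or more on the log2 scale, so none of these differences rests on a level at background. In RNA from whole cultures, fewer cells in a stage of the cell cycle and less RNA per cell cannot be told apart.

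**Figure D1:**
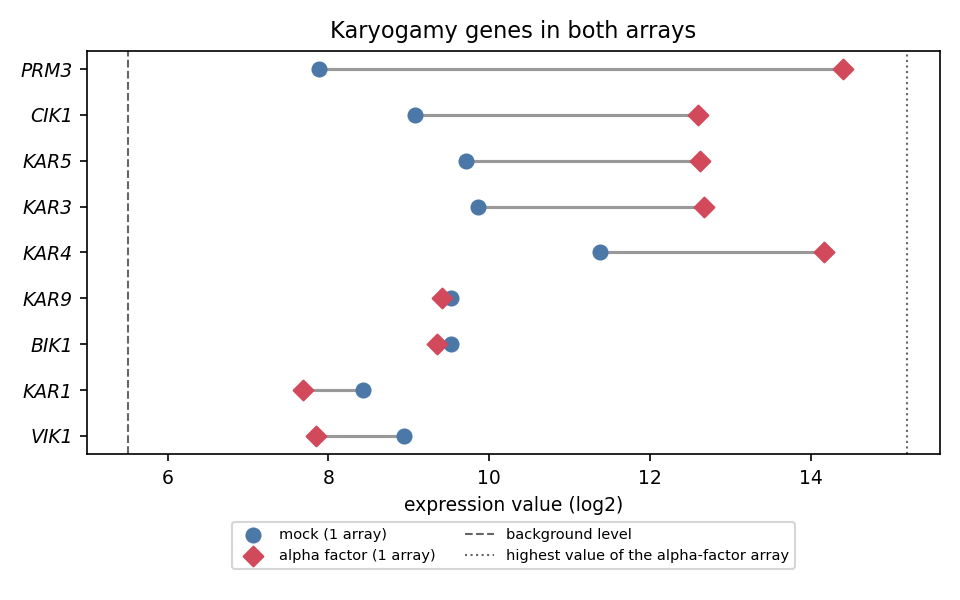
Expression value (log2) of each karyogamy gene in the mock array (circles) and the alpha-factor array (diamonds), 1 array each, ordered by the difference. The dashed line is the background level of 5.50 and the dotted line the highest value of the alpha-factor array, 15.19. PRM3, CIK1, KAR5, KAR3 and KAR4 moved right by 2.78 or more, KAR9 and BIK1 stayed within 0.18, and KAR1 and VIK1 moved left.

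KAR4 encodes the transcription factor of the set, which acts with the pheromone-response factor Ste12 and is needed for the induction of KAR3 and CIK1. Its level was 11.38 in mock and 14.15 with alpha factor, 6.86-fold higher. Its level with alpha factor lay 1.04 below the highest value of that array, where a difference can be compressed. KAR4 is known to make a longer transcript in growing cells and a shorter one in pheromone. Which of them the probe set reads was not examined.

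Proteins known to work with Kar4 or with Ste12 were listed beside it. Of 7 such genes 6 were measured. IME4, the catalytic subunit of the mRNA methyltransferase to which Kar4 belongs in meiosis, was below background in mock at 5.09 and was at 12.68 with alpha factor. Set against the mock background level, it was at least 145-fold higher. The annotation places an antisense RNA across IME4, and the strand that its probe set reads was not examined. DIG2, an inhibitor of Ste12, went from 9.62 to 11.81, 4.56-fold higher. STE12 itself was at 11.38 and 12.06, a difference of 0.68, short of the 2-fold rule. DIG1, the paralogue of DIG2, was at 12.42 and 11.79, a difference of -0.63. The methyltransferase partners MUM2 and SLZ1 had differences of -0.01 and -0.32, and SLZ1 was near background in both arrays, at 6.09 and 5.77. The list of 6 measured genes held 2 higher genes and no lower one, beside 5.51% and 3.78% of all genes. VIR1 was not analysed here.

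KAR3 encodes the karyogamy motor, a kinesin that walks toward microtubule minus ends. Its level was 9.86 in mock and 12.67 with alpha factor, 6.98-fold higher. Kar3 works bound to 1 of 2 related partner proteins with no motor activity, Cik1 or Vik1. CIK1, whose product accompanies Kar3 in mating and on cytoplasmic and spindle microtubules, was at 9.07 in mock and 12.60 with alpha factor, 11.5-fold higher. VIK1, whose product holds Kar3 at the spindle poles of growing cells, was at 8.94 in mock and 7.84 with alpha factor, 2.13-fold lower. The motor gene and the mating partner were thus both higher with alpha factor, and the gene of the other partner was lower. The differences of CIK1 and VIK1 lay 4.62 apart on the log2 scale, so their ratio within an array was 24.6-fold larger with alpha factor. That ratio of ratios does not change with a scaling that shifts a whole array. CIK1 and KAR3 lay 0.72 apart, more than the span within 6 of the 7 control transcripts and less than that of TDH1, 0.87. Such a span describes probe sets along 1 transcript and not the spread between cultures.

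The call for VIK1 lay close to the rule. With a pseudocount of 32 added on the linear scale, its difference was -0.997, just short of 2-fold. CIK1 is known to make a shorter transcript in pheromone, and the arrays give 1 value for all forms the probe set reads.

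The genes of the membrane step were both higher. PRM3 encodes a small protein of the nuclear envelope that is made in pheromone and needed for envelope fusion. Its level was 7.89 in mock and 14.40 with alpha factor, 91.3-fold higher. This was the second largest difference, at rank 2 of the 5337 genes above background. The level with alpha factor lay 0.79 below the highest value of the array, so this difference too can be compressed. KAR5 encodes a membrane protein of the nuclear envelope and endoplasmic reticulum that is also required for fusion of the envelopes. It was at 9.71 in mock and 12.62 with alpha factor, 7.50-fold higher. PRM3 and KAR5 shared a direction but not a size, with differences 3.60 apart.

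The membrane step also draws on proteins of growing cells, above all the Hsp70 chaperone Kar2 of the endoplasmic reticulum and the translocon. None of 11 listed genes passed 2-fold in either direction, which is near the 5.51% higher and 3.78% lower of all genes. Their median difference was -0.03. KAR2 was at 14.10 and 14.28, near the top of the scale. JEM1, a J-domain partner of Kar2 needed for karyogamy, was at 9.37 and 10.04, the largest difference of the list at 0.67. SIL1, a nucleotide exchange factor of Kar2, followed with 0.48. SEC72 and SEC66, translocon subunits whose loss impairs nuclear fusion, had differences of 0.33 and -0.25, and SEC63 had one of -0.20. The 11 genes lay between -0.32 and 0.67, all below the differences of PRM3 and KAR5.

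**Figure D2:**
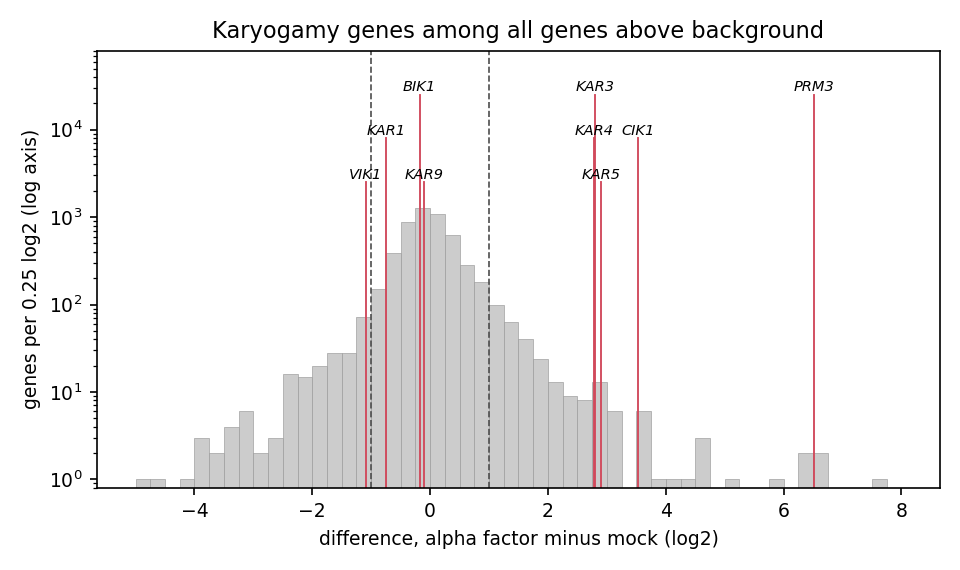
Number of genes above background (log axis) by their difference between the arrays in bins of 0.25 log2, with the 9 karyogamy genes marked by red lines and the 2-fold rule by dashed lines. PRM3 stands at 6.51, CIK1, KAR5, KAR3 and KAR4 stand between 2.78 and 3.53, and KAR9 and BIK1 fall within the bulk of all genes.

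BIK1 and KAR9 encode proteins of the microtubule tips. Bik1, a relative of the mammalian protein CLIP-170, binds growing plus ends and is needed for nuclear fusion as well as for spindle function. BIK1 was at 9.53 in mock and 9.35 with alpha factor, a difference of -0.18. Kar9 links the tips, through Bim1 and the myosin Myo2, to actin cables and so orients nuclei toward a bud or a mating projection. KAR9 was at 9.52 in mock and 9.41 with alpha factor, a difference of -0.10. Both differences lay within the range from -0.38 to 0.35 that held 95% of the S. pombe probe sets, which describes signal near background and not the spread between cultures.

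The tubulin, motor and tip genes around them mostly stayed within 2-fold as well. Of 13 listed genes, 1 was lower and none higher, with a median difference of -0.22, and the 1 lower gene is near the 3.78% of all genes that were lower. The lower gene was KIP2, a kinesin that carries Bik1 to plus ends, at 10.04 and 8.92, 2.17-fold lower. The spindle kinesins KIP1 and CIN8 had differences of -0.93 and -0.90, short of the rule. Centring on the hybridisation controls, described with the processing, was an alternative chosen after seeing the data. It gave 3 lower genes in the list, while the lower calls over all genes went from 202 to 269. BIM1 had a difference of 0.21 and MYO2 one of -0.02. KAR3 was thus the only one of the kinesin genes examined, KAR3, CIN8, KIP1, KIP2, KIP3 and SMY1, that was higher by 2-fold or more in the values as deposited. Dynein and dynactin form the other minus-end motor system of yeast. Among 10 listed genes of that system none passed 2-fold, near the 5.51% higher and 3.78% lower of all genes. Of the 10, DYN3 and NDL1 had exactly equal values in both arrays, at 9.21 and 8.87. On the whole array 287 of 10928 probe sets had equal values, and the reason was not examined. The largest differences there were those of NUM1, the cortical dynein anchor, at -0.70, the dynein heavy chain gene DYN1 at -0.56 and the dynactin gene NIP100 at 0.53.

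KAR1 encodes a protein of the spindle pole body's half-bridge, which in mating cells anchors the cytoplasmic microtubules through Spc72. It was at 8.43 in mock and 7.69 with alpha factor, a difference of -0.75 or 1.68-fold lower, which is short of the 2-fold rule. At a rule of 1.5-fold, KAR1 and VIK1 both counted as lower, beside 10.7% of all genes, and the same count of 5 members as higher, beside 12.1%.

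Values below 0 were also frequent among spindle pole body genes. Of 16 listed genes 5 passed the 2-fold rule on the lower side and none on the higher, 14 had a ratio below 1, and the median difference was -0.56. Over all 5337 genes above background, 3.78% were lower by 2-fold and 2879 had a ratio below 1. BBP1 and MPS2, 2 of the genes that act in inserting the new pole body into the envelope, had differences of -1.57 and -1.02. In the same list NDC1 had one of -0.55 and NBP1 one of 0.62, neither past the rule. MPS2 lay at the rule, and the list held 4 lower genes after centring on the S. cerevisiae median or with the pseudocount. SPC29, of the central core, was at 9.18 and 7.68, 2.83-fold lower. SPC97, of the gamma-tubulin complex, was at 9.36 and 7.96, 2.64-fold lower. NUD1, a scaffold of the outer plaque, was 2.34-fold lower. Among genes of proteins that contact Kar1, CDC31 at -0.02, SPC72 at -0.27 and SFI1 at -0.19 had smaller values. These 3 were singled out after their values were seen, and they are not a full list of the genes of such proteins.

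**Figure D3:**
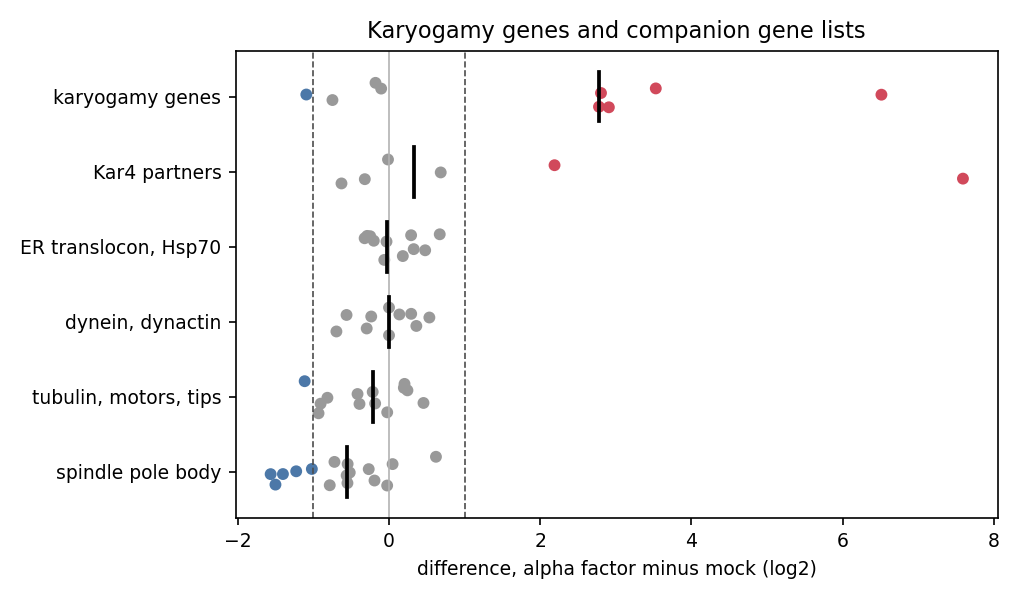
Difference between the arrays (log2) of each karyogamy gene and of each gene of 5 companion lists, with red points for genes called higher, blue for lower and grey for neither, and a black bar at each list's median. Vertical scatter within a list has no meaning. The karyogamy genes split into 5 at 2.78 or more and 4 at -0.10 or less, the endoplasmic reticulum and dynein lists lie within 2-fold, and 5 of 16 spindle pole body genes pass the 2-fold rule on the lower side. The IME4 point at 7.59 comes from a mock level below background.

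The genes next to the karyogamy genes on the chromosomes were examined to see whether neighbours shared their differences. Of 18 nearest neighbours 16 were measured, 1 was higher by 2-fold or more, 1 was lower, and 14 were neither. The 1 gene in each direction is near the 5.51% and 3.78% of all genes. None of the 18 overlapped its karyogamy gene in the annotation. The higher neighbour was PEX34, a peroxisome gene that is transcribed away from KAR4 across their shared upstream region, at 11.56 and 12.82, 2.38-fold higher. CIK1 also has a divergent neighbour, the SNARE gene VTI1, at 10.33 and 11.15, a difference of 0.82. The divergent neighbours of the other genes, RRP15 beside KAR3 and RNQ1 beside BIK1, had differences of -0.29 and -0.64. The lower neighbour was CLN1, a G1 cyclin gene downstream of CIK1 on the same strand, at 10.62 and 7.56, 8.33-fold lower. CIK1 and CLN1 thus lie side by side and differed in opposite directions. Beside PRM3, the member with the largest difference, the convergent neighbour RSA1 had a difference of -0.20, and MIY2 was not analysed here. AEP1 and SOV1 flank KAR5 and had differences of -0.22 and -0.47, and HFI1 and YAH1 flank VIK1 with -0.38 and -0.77. TAZ1 beside KAR3 had a difference of 0.27 and HIS4 beside BIK1 one of 0.17. SRP1 and SWT21 flank KAR1 and had differences of 0.04 and -0.11, and MDL2 and PLC1 flank KAR9 with 0.32 and -0.37. RDT1, beside KAR4, was not analysed here.

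**Figure D4:**
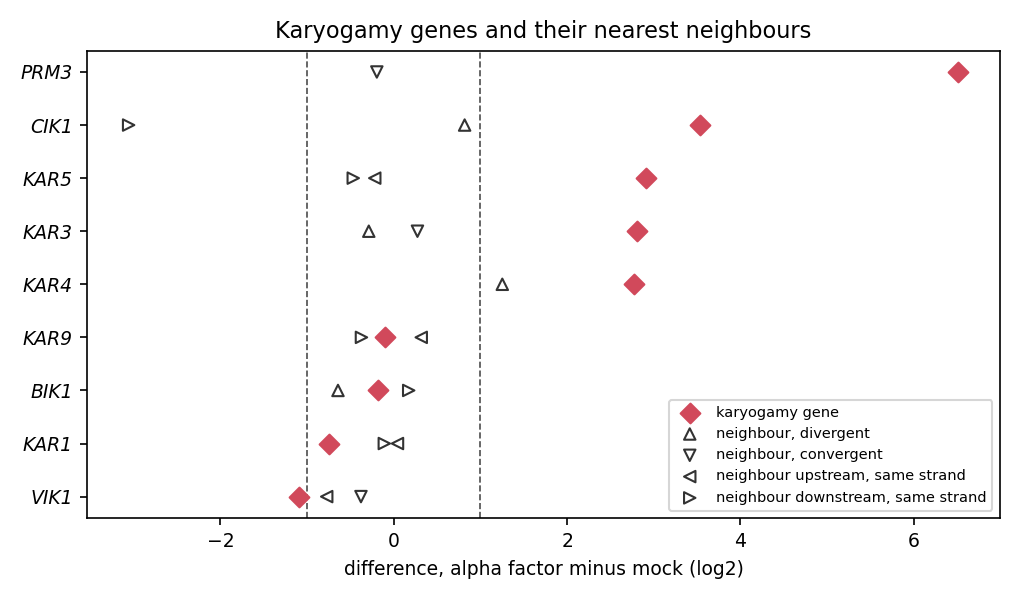
Difference between the arrays (log2) of each karyogamy gene (red diamonds) and of its nearest measured neighbours on the chromosome (open triangles, by orientation), with the 2-fold rule as dashed lines. PEX34 beside KAR4 at 1.25 and CLN1 beside CIK1 at -3.06 are the neighbours outside the dashed lines.

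For each karyogamy gene past 2-fold, the 3 genes with the nearest pair of values were found by the distance over the 2 arrays on the log2 scale, which also depends on how bright each probe set is, so the distances are given as a description alone. KAR3 and KAR5 were among each other's nearest, 0.16 apart, and both had the Pho85 cyclin gene PCL2 as their closest gene, at 0.12 and 0.13. HYM1 was next for KAR3 at 0.21, and PRM10 for KAR5 at 0.26. The genes nearest PRM3 were FIG1, PRM1 and FUS2, at 0.53, 1.03 and 1.38. Those nearest CIK1 were the uncharacterised reading frame YDR124W at 0.40, PRM10 at 0.52 and STF1 at 0.64. KAR4 was nearest the MAP kinase gene SLT2 at 0.26, the glucan synthase gene GSC2 at 0.34 and the fusion gene FUS1 at 0.40. VIK1 was nearest SPO21 at 0.08, MTW1 at 0.13 and HEM3 at 0.15.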

How the data were processed

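The deposited table gave log2 expression values for 10928 probe sets in 1 mock and 1 alpha-factor sample. The authors used the affy package, per the submitters' processing notes. The sources used here do not give its version or how background, normalization and probe summary were done. The log2 scale was inferred from values between 3.32 and 15.19. Sorted, the columns lay within 0.09 of each other, so the arrays appear scaled alike, and a change in total mRNA would not show. The mock sample's free-text description repeats that of the treated sample, so groups came from titles and source names. Every value column belonged to a sample.

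Probe sets were named through the platform annotation and, by gene ID, the RefSeq table of assembly R64. Of these, 5498 were S. cerevisiae and 1747 S. pombe, and 3683 were unnamed here. Probe sets of 1 gene were averaged. No build is named for the array, so R64 served for names and for neighbours only. The lists were 7 Kar4 partners, 11 translocon and Hsp70 genes, 16 spindle pole body genes, 13 tubulin, motor and tip genes, 10 dynein and dynactin genes, 7 a-specific, 4 alpha-specific and 7 pheromone-response genes. The members and lists were chosen with earlier results of these data known. Named were all members, every listed gene past 2-fold, the largest 3 of each list, neighbours and nearest genes, and any other gene was named after its value was seen.

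The 27 probe sets for hybridisation controls, bacterial and phage transcripts usually added in equal amount to every hybridisation, were all brighter in the alpha-factor array, by a median of 0.13. Centring on them moved the median of all genes from -0.03 to -0.16 and the calls from 294 higher and 202 lower to 238 higher and 269 lower. It shifts every gene alike, so genes keep their differences relative to each other. Other alternatives were centring on yeast medians, quantile normalization, subtraction of a loess fit, the brightest probe set of a gene, other background levels or no filter, a pseudocount of 32 and fold rules of 1.5 and 4. The values were computed with numpy 2.4.6, pandas 2.3.3 and statsmodels 0.14.6 in Python 3.11.15.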

Additional observations from a re-analysis of the deposited data

Results flagged for a closer look

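Control probe sets outside the yeast comparison differed between the arrays. The 9 probe sets for the Bacillus subtilis transcript lys had a median of 4.36 in mock and 12.27 with alpha factor, and a median difference of 7.90 on the log2 scale. The 9 for the B. subtilis transcript dap went the other way, from a median of 14.02 in mock to 4.16 with alpha factor, a median difference of -9.62. The phe and thr probe sets of the same organism, also 9 each, had median differences of -0.01 and -0.06. They drew attention because yeast cultures hold none of these transcripts and each signal appeared in a single array. No label used here describes an added control RNA, and the part of these signals in the karyogamy values was not tested.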

How the results depend on the processing

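The count of higher karyogamy genes was 5 under every other scaling, the pseudocount and both other fold rules. The brightest probe set and the background settings could not change it, since each of these genes has 1 probe set and lies well above background. PRM3 ranged from 6.33 to 6.58, CIK1 from 3.40 to 3.59, KAR5 from 2.77 to 2.98, KAR3 from 2.67 to 2.88 and KAR4 from 2.64 to 2.84. KAR9 ranged from -0.24 to -0.07, BIK1 from -0.31 to -0.15, KAR1 from -0.88 to -0.67 and VIK1 from -1.23 to -0.997, the last with a pseudocount of 32. The count of lower karyogamy genes, 1 as reported, was 0 with that pseudocount, 2 at a 1.5-fold rule and 0 at a 4-fold rule. At the 1.5-fold rule 12.1% of all genes were higher and 10.7% lower. Among the translocon and Hsp70 genes 1 was higher, and 1 spindle pole body gene was higher and 7 were lower. That rule also gave 4 lower tubulin, motor and tip genes, 1 lower dynein or dynactin gene, and 3 higher and 1 lower Kar4 partners. Spindle pole body genes called lower, 5 as reported, numbered 4 after centring on the S. cerevisiae median and 4 with the pseudocount, where MPS2 is nearest the rule. The 4-fold rule gave 0 lower spindle pole body genes and 0 lower tubulin, motor and tip genes, beside 1.01% of all genes. Centring on the hybridisation controls gave 3 lower tubulin, motor and tip genes, as the shift moves all differences down. The lower calls over all genes went from 202 to 269 with it. No paired analysis was possible because each condition had 1 array. The promoter motif and protein comparisons that had been planned, with the shorter motif as an alternative, were not run, since promoter and protein sequences were not used here. With 1 array per condition, differences of the size of those of KAR9 and BIK1 cannot be told from the unknown spread between cultures.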
